A study of Mus musculus with 18 samples.

Results

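The p53 pathway and the Cdkn2 locus were examined through 10 genes in mouse embryonic fibroblast lines under endoplasmic reticulum (ER) stress. The genes were Trp53, Mdm2, Cdkn1a, Cdkn2a, Cdkn2b, Ccng1, Bbc3, Bax, Gadd45a and Zmat3. They were chosen because immortalised fibroblast lines may lose Trp53 or the Cdkn2a locus. A row of the deposited table belonged to a gene when the row's gene names included its symbol. All 10 genes were found, each at 1 locus, among the 51499 loci of the table, and all 10 had a mean of at least 1 FPKM (fragments scaled for transcript length and library size) over the groups.

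The experiment asked whether AGO2, the slicing protein of RNA interference, limits particular mRNAs when the ER is stressed. Lines labelled Ago2+/+ (wild type) or Ago2-/- (lacking Ago2) received DMSO as the solvent control, tunicamycin, an inhibitor of N-linked glycosylation, or 500 nM of thapsigargin, an inhibitor of the ER calcium pump. In all, 18 RNA-seq libraries were made, 3 for each of the 6 groups. Where a sentence gives 3 values for a genotype label, they are for DMSO, tunicamycin and thapsigargin in that order. The table gives 1 FPKM for each group, pooled by the authors over its libraries, so the values below have no SD and no difference was tested. The groups are the Ago2+/+ and Ago2-/- labels under DMSO, tunicamycin and thapsigargin; the sources used here give neither age and strain nor how the lines were immortalised. According to the study's methods the lines were not authenticated, and the Ago2-/- cells were tested for loss of the AGO2 protein by western blot. Since the genotypes were to be compared across separate lines, a difference between lines and a difference between genotypes cannot be told apart.

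p53, the product of Trp53, is a transcription factor that is held at a low level by the ubiquitin ligase MDM2 and accumulates after DNA damage and other stress. It switches on inhibitors of the cell cycle, such as Cdkn1a (p21), and promoters of cell death, such as Bbc3 (PUMA) and Bax, and it also raises its own inhibitor, Mdm2. Much of this control acts on the p53 protein rather than on its mRNA. Cdkn2a encodes p16INK4A, which inhibits the kinases CDK4 and CDK6, and, from another first exon, p19ARF, which restrains MDM2. Cdkn2b encodes the related inhibitor p15INK4B. Mouse embryonic fibroblasts in culture commonly escape senescence by losing either Trp53 or the Cdkn2a locus, and lines without p53 function often keep a high level of Cdkn2a transcript.

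The level of Ago2 went against the labels, so each group is named only as it is labelled. The Ago2 transcript measured 22.1 FPKM in the library set labelled Ago2+/+ DMSO, 5.75 in that labelled Ago2+/+ tunicamycin, 17.0 in that labelled Ago2+/+ thapsigargin, 5.61 in that labelled Ago2-/- DMSO, 15.5 in that labelled Ago2-/- tunicamycin and 20.7 in that labelled Ago2-/- thapsigargin. It was thus low in 1 group of each genotype label and not in the 3 groups labelled Ago2-/-. The genotype labels of 4 libraries also conflict with one another, and the groups labelled Ago2+/+ carry the name DCR1 in the titles for a reason that the sources used here do not give. Across the 11929 loci averaging 1 FPKM or more, 3 pairs of groups with different labels were close. Labelled Ago2-/- DMSO and Ago2+/+ tunicamycin were at least 2-fold apart in either direction at 1.44% of these loci, Ago2-/- tunicamycin and Ago2+/+ thapsigargin at 1.58%, and Ago2-/- thapsigargin and Ago2+/+ DMSO at 3.58%. The other 12 pairs of groups were 2-fold apart at 16.8 to 22% of loci. Of 9 fibroblast markers, 8 had a mean of at least 1 FPKM and Thy1 was listed at 0 in all 6 groups. These 8 were uneven, each spanning at least 1 on the log2(FPKM + 0.1) scale: Col1a1 ranged from 5.97 to 651 FPKM, Col1a2 from 23.7 to 577, Col3a1 from 6.60 to 30.9, Pdgfra from 0.488 to 8.72, Pdgfrb from 0.540 to 17.9, Fn1 from 46.4 to 599, Vim from 952 to 2634 and the locus of S100a4 from 285 to 1967. Col1a1, Col1a2, Col3a1 and Pdgfra were lowest, and Vim highest, in the groups labelled Ago2-/- DMSO and Ago2+/+ tunicamycin. Pdgfrb and Fn1 were instead lowest in the groups labelled Ago2+/+ DMSO and Ago2-/- thapsigargin. The locus of S100a4 was lowest in those labelled Ago2+/+ thapsigargin and Ago2-/- tunicamycin. The summed level of 6 epithelial markers was 0.205 to 2.01 FPKM, of 4 endothelial markers 0.0836 to 0.449, of 6 leukocyte markers 1.23 to 2.35 (mostly Cd68) and of 4 pluripotency markers 0 to 0.139.

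Stretches upstream of the start sites that hold a match to the sequence p53 binds are shown before the values. Only the 250 bases before each start were searched, so sites elsewhere in these genes would be missed. The 250 bases before each start in the RefSeq promoter table (GRCm38.p6) were searched for the p53 half-site consensus, in which purines precede and pyrimidines follow a core of C, A or T, A or T, and G. This consensus is its own reverse complement, so a single search covers both strands. Of the 10 genes, 9 had an entry (Zmat3 had none), with 13 starts among them. A match was found for 6 of the 9 genes, against 8.2% of all 27025 genes with an entry and 7.13% of all 32851 promoters. Capitals mark the match, 5′ to 3′ on the strand of the gene.
Cdkn1a, chr17:29090881-29090962, plus strand, 73 to 42 bases before the upstream start: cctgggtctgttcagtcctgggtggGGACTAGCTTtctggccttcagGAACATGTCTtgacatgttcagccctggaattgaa
Mdm2, chr10:117710910-117710969, minus strand, 186 to 177 bases before the start: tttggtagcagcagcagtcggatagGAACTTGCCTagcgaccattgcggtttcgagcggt
Ccng1, chr11:40755437-40755496, minus strand, 185 to 176 bases before the start: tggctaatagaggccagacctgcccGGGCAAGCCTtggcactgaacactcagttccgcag
Bax, chr7:45467065-45467124, minus strand, 201 to 192 bases before the start: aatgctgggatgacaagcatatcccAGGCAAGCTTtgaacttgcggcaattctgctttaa
Trp53, chr11:69580259-69580318, plus strand, 75 to 66 bases before the start: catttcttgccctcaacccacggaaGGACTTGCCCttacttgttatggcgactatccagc

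Only Cdkn1a of the 9 genes held a pair of matches with at most 13 bases between them, the form of a whole p53 response element, an arrangement found in 0.0666% of the 27025 genes. It lay before the upstream of 2 Cdkn1a starts, and the other start had no match. Gadd45a held 1 match 40 to 31 bases before its RefSeq start, in a stretch that overlaps an annotated exon. That start, chr6:67037407 on the minus strand, lies inside the annotated gene, which ends at 67037457. Cdkn2a (2 starts), Cdkn2b (1 start) and Bbc3 (3 starts) held none in these windows. A match is a likeness of letters and says nothing of binding in these cells.

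Trp53 (ENSMUSG00000059552, chr11:69580359-69591873, plus strand, GRCm38) was abundant in 4 groups and scarce in the other 2. With the label Ago2+/+ DMSO its level was 165 FPKM, against 10.9 in the group labelled Ago2+/+ tunicamycin and 202 in that labelled Ago2+/+ thapsigargin. Under the Ago2-/- label it was 9.79 FPKM with DMSO, 195 under tunicamycin and 176 under thapsigargin. The 4 high groups lay within 165 to 202 FPKM, each at most 1.10-fold above the next, and a 15.1-fold gap separated the lowest of them from the Ago2+/+ tunicamycin group. Both low groups were 1.12-fold apart. The highest level was 20.6-fold above the lowest, a span of 4.35 on the log2(FPKM + 0.1) scale, and 7.11% of the 11929 loci spanned more. With 1 value a group, steps such as those of 1.04 to 1.12-fold cannot be set against a spread. No group lacked the transcript: the lowest value, 9.79 FPKM, lay above the mean level of Bbc3 and Zmat3. The table holds no reads, so changes in the coding sequence of Trp53, which can abolish the protein's function at any mRNA level, were not analysed here.

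**Figure D1:**
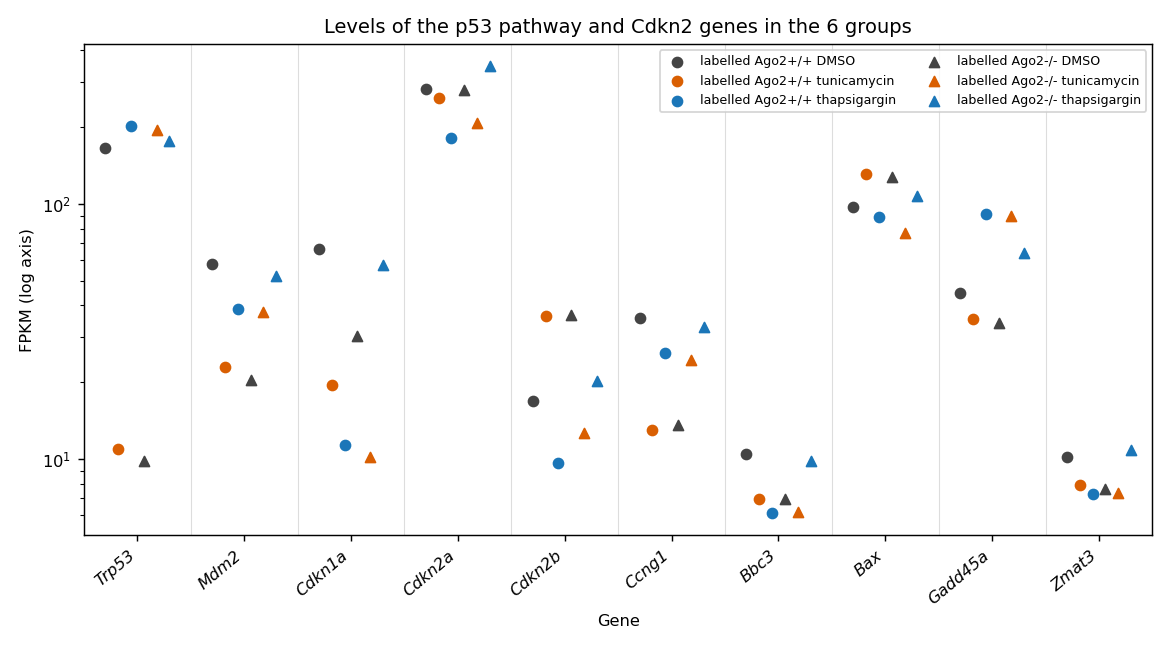
FPKM (y axis, log scale) of each of the 10 genes (x axis) in the 6 groups, 1 point for each group's pooled value; circles are groups labelled Ago2+/+, triangles groups labelled Ago2-/-, and colour gives the treatment. Trp53 splits into 4 points between 165 and 202 FPKM and 2 points near 10 FPKM (10.9 and 9.79), whereas all 6 Cdkn2a points lie between 180.5 and 346 FPKM.

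Mdm2, the ubiquitin ligase that destroys p53 and is itself a p53 target (chr10:117688875-117710758, minus strand), had its lowest values in the groups where Trp53 was low. With the label Ago2+/+ DMSO it measured 58.0 FPKM, against 22.9 in the group labelled Ago2+/+ tunicamycin, 38.7 in that labelled Ago2+/+ thapsigargin, 20.5 in that labelled Ago2-/- DMSO, 37.6 in that labelled Ago2-/- tunicamycin and 52.1 in that labelled Ago2-/- thapsigargin. The 2 lowest groups were 1.64-fold under the next, and the whole range was 2.83-fold, far smaller than the 20.6-fold of Trp53. Unlike Trp53, Mdm2 also separated the remaining groups, with both values above 50 FPKM in the groups labelled Ago2+/+ DMSO and Ago2-/- thapsigargin.

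Cdkn1a, the p53 target that inhibits cyclin-dependent kinases and stops the cell cycle (chr17:29090979-29100722, plus strand), followed another order. The group labelled Ago2+/+ DMSO had 66.4 FPKM and that labelled Ago2-/- thapsigargin 57.4. Intermediate values of 30.3 and 19.6 FPKM were found in the groups labelled Ago2-/- DMSO and Ago2+/+ tunicamycin. The lowest were 11.3 FPKM in the group labelled Ago2+/+ thapsigargin and 10.2 in that labelled Ago2-/- tunicamycin. These 2 groups, with 5.07 to 6.50-fold less Cdkn1a than the highest ones, had the highest Trp53 levels of all, 202 and 195 FPKM. The span of Cdkn1a was 2.69 on the log2 scale, and 11.9% of loci spanned more.

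Cdkn2a (ENSMUSG00000044303, chr4:89274471-89294653, minus strand) was present at a high level in every group. With the label Ago2+/+ DMSO it measured 283 FPKM, against 261 in the group labelled Ago2+/+ tunicamycin, 180.5 in that labelled Ago2+/+ thapsigargin, 279 in that labelled Ago2-/- DMSO, 208 in that labelled Ago2-/- tunicamycin and 346 in that labelled Ago2-/- thapsigargin. The mean of 260 FPKM was exceeded by 2.73% of loci. The order of the groups had no gap, each step being at most 1.25-fold, and the range was 1.92-fold, a span of 0.94 that 41.5% of loci exceeded. The locus value pools the transcripts of p16INK4A and p19ARF, which start at chr4:89282192 and chr4:89294619 in the RefSeq table, so their shares cannot be read from it. The 250 bases before the p19ARF start held 40 CpG dinucleotides and those before the p16INK4A start 7.

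Cdkn2b (ENSMUSG00000073802, chr4:89306289-89311032, minus strand), 11.6 kb from Cdkn2a, was lower and more uneven. It reached 36.5 FPKM in both the group labelled Ago2+/+ tunicamycin and that labelled Ago2-/- DMSO, the groups where Trp53 was low. It stood at 20.1 in the group labelled Ago2-/- thapsigargin, 16.9 in that labelled Ago2+/+ DMSO, 12.6 in that labelled Ago2-/- tunicamycin and 9.59 in that labelled Ago2+/+ thapsigargin. The highest level was 3.81-fold above the lowest, and the 2 top groups stood 1.81-fold above the next. Neither Cdkn2 gene was missing from any group.

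Because a deleted Cdkn2a locus often takes its neighbours with it, the loci within 1000 kb on either side were read as well. Of 71 such loci, Cdkn2a itself included, 9 had a mean of at least 1 FPKM. In every group 52 stayed under 0.1 FPKM, and 37 were listed at 0 throughout, many of them interferon genes. Mtap, the neighbouring methylthioadenosine phosphorylase gene, was present in every group. It measured 52.6, 99.9 and 59.3 FPKM in the groups labelled Ago2+/+ under DMSO, tunicamycin and thapsigargin, and 102, 51.5 and 59.3 in those labelled Ago2-/-. Mtap was therefore highest in the same 2 groups as Cdkn2b. A pair of loci on the other side of Mtap had the widest ranges of the region. Gm12603, 190 kb from Cdkn2a, had 7.09, 29.4 and 0.415 FPKM under the Ago2+/+ label and 37.2, 0.205 and 7.84 under the Ago2-/- label, a 182-fold range. Gm12602, 146 kb away, had 2.85, 8.07 and 0.122 FPKM against 8.30, 0.0964 and 2.40. Both were high where Cdkn2b was high and lowest in the groups labelled Ago2-/- tunicamycin and Ago2+/+ thapsigargin. Focad ranged from 6.39 to 13.9 FPKM, Klhl9 from 14.9 to 23.8, Mrpl48-ps from 1.54 to 9.84 and Gm12609 from 0.783 to 1.62.

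**Figure D2:**
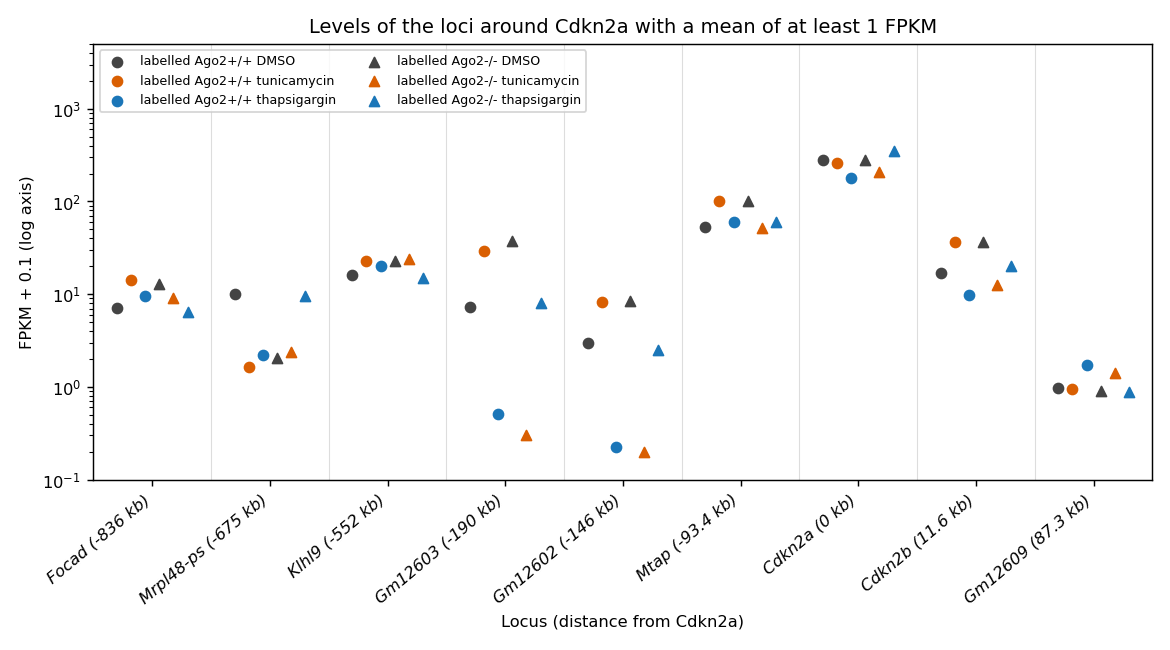
FPKM + 0.1 (y axis, log scale) of the 9 loci around Cdkn2a that averaged 1 FPKM or more, ordered along the chromosome with the distance from Cdkn2a in kb on the x axis; 1 point for each group, circles labelled Ago2+/+, triangles labelled Ago2-/-, colour by treatment. Cdkn2a, Cdkn2b and Mtap have values in every group, and Gm12603 spreads most, from 0.205 to 37.2 FPKM.

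The remaining arrest genes had narrower ranges than Trp53, Cdkn1a and Cdkn2b. Ccng1, cyclin G1, a p53 target that acts on MDM2 (chr11:40748552-40755311, minus strand), measured 35.6, 12.95 and 26.1 FPKM in the groups labelled Ago2+/+ under DMSO, tunicamycin and thapsigargin. In those labelled Ago2-/- it measured 13.5, 24.3 and 32.8 FPKM. Its order matched that of Mdm2 except that the 2 lowest groups changed places, with a 2.75-fold range against 2.83-fold. Gadd45a, a growth-arrest gene that responds to p53 and also to other stress signals, measured 44.8, 35.2 and 90.98 FPKM in the groups labelled Ago2+/+. In those labelled Ago2-/- it measured 34.0, 90.0 and 64.1 FPKM, so that it was lowest where Trp53 was low and highest in the groups labelled Ago2+/+ thapsigargin and Ago2-/- tunicamycin. The Gadd45a locus of the table (chr6:67035096-67080654, minus strand) reaches beyond the annotated gene, which ends at 67037457. Zmat3, an RNA-binding p53 target (chr3:32334792-32366014, minus strand), stayed between 7.30 and 10.8 FPKM, a 1.48-fold range.

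The death genes were also even. Bbc3, which encodes the BH3-only protein PUMA (chr7:16308393-16318205, plus strand), stood at 10.5, 6.97 and 6.13 FPKM under the Ago2+/+ label and 6.94, 6.19 and 9.82 under the Ago2-/- label, a 1.71-fold range. Bax, the effector that permeabilises mitochondria, shares its locus with Dhdh and Gm45808 (chr7:45461697-45526268), so its values can include reads of both. That locus measured 97.5, 131 and 88.8 FPKM under the Ago2+/+ label and 128, 76.7 and 108 under the Ago2-/- label. Its 1.70-fold range was close to that of Bbc3, but the groups with low Trp53 were its highest. The spans of Bbc3, Bax and Zmat3, at 0.76, 0.77 and 0.56, lay under the median span of 0.80 over all loci averaging 1 FPKM or more.

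The 10 genes split in the same directions as the close pairs of groups, and such splits were common in the whole table. The groups labelled Ago2-/- DMSO and Ago2+/+ tunicamycin both lay below the other 4 for 4 genes (Trp53, Mdm2, Ccng1 and Gadd45a), as they did for 26.4% of all loci, and above for 2 (Cdkn2b and Bax), against 26.6%. The groups labelled Ago2-/- tunicamycin and Ago2+/+ thapsigargin lay below the rest for 6 genes (Cdkn1a, Cdkn2a, Cdkn2b, Bbc3, Bax and Zmat3), against 23.8% of loci, and above for 2 (Trp53 and Gadd45a), against 26%. Those labelled Ago2-/- thapsigargin and Ago2+/+ DMSO lay above the rest for 6 genes (Mdm2, Cdkn1a, Cdkn2a, Ccng1, Bbc3 and Zmat3), against 17.6%, and below for 0, against 19.6%. Within the close pairs none of the 10 genes was 2-fold apart, where 1.44 to 3.58% of all loci were. The largest difference there was that of Cdkn1a, 0.63 on the log2 scale, between labelled Ago2-/- DMSO and Ago2+/+ tunicamycin.

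Stress was compared with DMSO under each genotype label, and a gene was counted when it differed by at least 2-fold, that is by 1 on the log2(FPKM + 0.1) scale. Under tunicamycin in the groups labelled Ago2+/+, 4 of the 10 genes lay lower than under DMSO, against 8.29% of loci. These were Trp53 by -3.90, Cdkn1a by -1.76, Ccng1 by -1.45 and Mdm2 by -1.34. Cdkn2b lay higher, by 1.11, against 9.61% of loci. The median over the 10 genes was -0.47, and that over all loci 0.01.

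Under thapsigargin in the groups labelled Ago2+/+, Trp53 differed from DMSO by 0.29 only. Cdkn1a was the 1 gene 2-fold lower, by -2.54, where 7.54% of loci were, and Gadd45a the 1 gene 2-fold higher, by 1.02, where 9.27% were. Both comparisons use the same DMSO value. With the Ago2+/+ label, Trp53 therefore stood 15.1-fold lower than DMSO under tunicamycin and 1.22-fold higher under thapsigargin. Its level in the group labelled Ago2+/+ tunicamycin, 10.95 FPKM, was close to the 9.79 of that labelled Ago2-/- DMSO. Whether the difference follows the stressor was not tested.

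In the groups labelled Ago2-/-, Trp53 lay above DMSO with both stressors, by 4.30 under tunicamycin and by 4.16 under thapsigargin. Under tunicamycin Gadd45a also lay higher, by 1.40 (2 of 10 genes, against 11.6% of loci), whereas Cdkn1a and Cdkn2b lay lower, by -1.56 and -1.53 (2 of 10, against 10.3%). Under thapsigargin Mdm2 lay higher by 1.34 and Ccng1 by 1.27, which with Trp53 made 3 of 10 genes against 8.21% of loci, and 0 of 10 lay 2-fold lower, against 9.81%. The DMSO value is again shared.

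**Figure D3:**
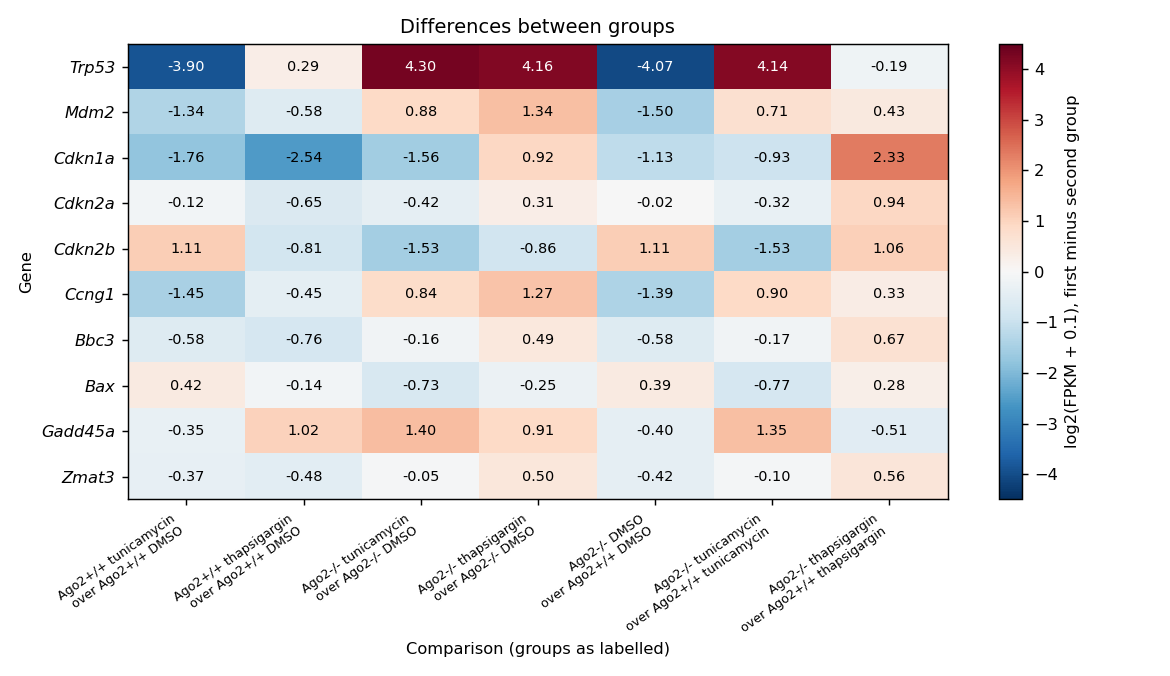
Difference in log2(FPKM + 0.1), first group minus second, for the 10 genes (rows) in the 7 comparisons (columns, groups as labelled); red is higher and blue lower in the first group, and each cell prints its value. Trp53 has the deepest colours, from -4.07 to 4.30, while Bbc3, Bax and Zmat3 stay within 1 in every column.

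The genotype labels were compared under each treatment. Under DMSO the group labelled Ago2-/- lay 2-fold lower than that labelled Ago2+/+ for 4 of 10 genes (against 8.37% of loci): Trp53 by -4.07, Mdm2 by -1.50, Ccng1 by -1.39 and Cdkn1a by -1.13. Cdkn2b lay higher, by 1.11 (against 9.66%). Under tunicamycin the direction for Trp53 was the opposite, 4.14 higher in the group labelled Ago2-/-, and Gadd45a lay higher by 1.35 (2 of 10, against 11.6%), whereas Cdkn2b lay lower by -1.53 (1 of 10, against 9.88%). Under thapsigargin Trp53 differed by -0.19, Cdkn1a lay higher in the group labelled Ago2-/- by 2.33 and Cdkn2b by 1.06 (2 of 10, against 7.42%), and 0 of 10 lay 2-fold lower, against 9.97%. Cdkn2a did not reach 2-fold in any of the 7 comparisons, with differences between -0.65 and 0.94.

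The difference between stress and DMSO itself differed between the genotype labels, which 1 value a group leaves untested. Labelled Ago2+/+ tunicamycin was 2-fold apart from Ago2+/+ DMSO at 17.9% of loci, but from Ago2-/- DMSO at 1.44%. Labelled Ago2-/- thapsigargin was 2-fold apart from Ago2-/- DMSO at 18% of loci, but from Ago2+/+ DMSO at 3.58%. Whether the changes below follow the treatment or a difference in cell background was not tested. For Trp53 under tunicamycin the change was -3.90 under the Ago2+/+ label and 4.30 under the Ago2-/- label, a difference of 8.20. For Mdm2 and Ccng1 the corresponding differences were 2.21 and 2.29, and for Cdkn2b -2.63. Under thapsigargin they were 3.87 for Trp53, 3.46 for Cdkn1a, 1.93 for Mdm2 and 1.72 for Ccng1. Ago2, the gene that the labels concern, was 3.84-fold lower under tunicamycin than under DMSO in the groups labelled Ago2+/+ and 2.77-fold higher in those labelled Ago2-/-. The part of the label conflicts in these differences was not tested, since the pooled values do not allow the 4 libraries to be left out.

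The genes that act on p53 differed little between groups. Of 16 listed regulators (ubiquitin ligases, kinases of the DNA damage response, acetylases and relatives of p53), 14 had a mean of at least 1 FPKM. Their median span was 0.46, against 0.80 for all loci, and 1 of the 14, the deacetylase Sirt1, spanned at least 1, against 38% of loci. Sirt1 had 20.5, 10.8 and 15.6 FPKM under the Ago2+/+ label and 9.29, 14.1 and 21.8 under the Ago2-/- label. The next widest were the checkpoint kinases Chek2 (9.55 to 18.8 FPKM) and Chek1 (14.7 to 28.1) and the p53 inhibitor Mdm4 (22.9 to 43.3). Mdm4 was highest in the 2 groups where Mdm2 was lowest. The relatives of p53, Trp63 and Trp73, reached at most 0.113 and 0.0273 FPKM. Over the 7 comparisons, 0 to 1 of the 16 genes lay 2-fold higher and 0 to 1 lower, where 7.42 to 11.6% of all loci lay higher and 7.54 to 10.3% lower. The genes counted include Trp63, whose mean of 0.041 FPKM lay below the filter of the background. With the Ago2-/- label it was called lower under thapsigargin at 0.00359 FPKM, against 0.112 under DMSO.

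Of 14 further p53 targets in arrest and repair, all had a mean of at least 1 FPKM and 6 spanned at least 1, a share near the 38% of all loci. Gdf15, a stress-induced cytokine that p53 and other factors raise, spanned most. It had 0.738, 0.0677 and 5.67 FPKM under the Ago2+/+ label and 0.0801, 7.41 and 0.870 under the Ago2-/- label, so its lowest values were in the groups with low Trp53. Rrm2b, the p53-induced ribonucleotide reductase subunit, was lowest in the same groups, at 4.21 and 5.19 FPKM against 10.4 to 11.7 in the others. Plk2, a polo-like kinase, was not: it had 54.8, 117 and 200 FPKM under the Ago2+/+ label and 106, 175.5 and 78.5 under the Ago2-/- label. The antiproliferative gene Btg2 ranged from 4.13 to 13.3 FPKM. In the comparison of tunicamycin with DMSO under the Ago2+/+ label, 1 of the 14 lay 2-fold higher and 2 lower (all loci: 9.61% and 8.29%), and under the Ago2-/- label 2 lay higher and 0 lower (11.6% and 10.3%). With thapsigargin 2 lay higher and 0 lower under either label, where 9.27% and 7.54% of all loci did so under the Ago2+/+ label and 8.21% and 9.81% under the Ago2-/- label. These counts are near the shares of all loci. The medians of the list in these comparisons were -0.23, 0.35, 0.05 and 0.38.

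**Figure D4:**
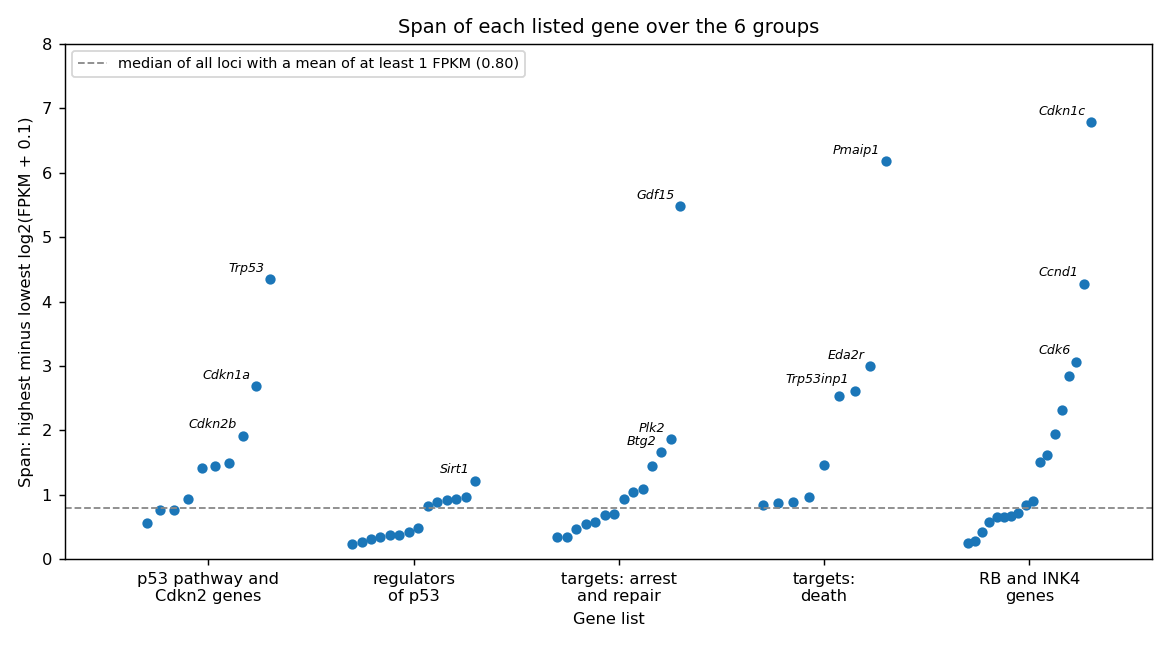
Span over the 6 groups (y axis, highest minus lowest log2(FPKM + 0.1)) of each gene with a mean of at least 1 FPKM in the 10-gene set and in 4 lists (x axis), 1 point a gene in rising order within its list, with the widest named; the dashed line is the median of all loci, 0.80. The listed regulators of p53, Mdm2 not among them, stay at or under 1.22, while Trp53 reaches 4.35 and Cdkn1c 6.79.

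The 10 listed p53 targets in cell death spread more, and in more than 1 order. Eda2r, a death receptor, and Trp53inp1, an autophagy and death regulator, were lowest where Trp53 was low. Eda2r had 1.98, 0.161 and 1.69 FPKM under the Ago2+/+ label and 0.237, 1.41 and 1.11 under the Ago2-/- label. Trp53inp1 had 2.40, 0.520 and 1.78 against 0.446, 3.26 and 3.12. Pmaip1, which encodes the BH3-only protein NOXA, had instead 4.61 and 3.27 FPKM in the groups with low Trp53 and 6.90 and 7.14 in those labelled Ago2+/+ thapsigargin and Ago2-/- tunicamycin. It was listed at 0.00330 and 0 in the groups labelled Ago2+/+ DMSO and Ago2-/- thapsigargin, where Trp53 was high. The death receptor gene Fas had 1.35, 1.34 and 3.75 FPKM against 4.19, 5.52 and 0.867, and here the close groups labelled Ago2-/- DMSO and Ago2+/+ tunicamycin were apart. Under tunicamycin, 2 of the 10 lay 2-fold higher and 2 lower than under DMSO with the Ago2+/+ label (all loci: 9.61% and 8.29%), and 5 higher and 0 lower with the Ago2-/- label (11.6% and 10.3%). Under thapsigargin the counts were 3 and 0 with the Ago2+/+ label (9.27% and 7.54%), and 2 and 2 with the Ago2-/- label (8.21% and 9.81%). Perp, with a mean of 0.544 FPKM, was counted although the background holds only loci averaging 1 FPKM or more. With the Ago2+/+ label it was called higher under tunicamycin at 0.109 FPKM, against 0 under DMSO.

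In the RB and INK4 axis, 8 of 18 listed genes spanned at least 1, a share near the 38% of all loci. Ccnd1, cyclin D1, the partner of CDK4 and CDK6, had 85.7, 207 and 13.4 FPKM under the Ago2+/+ label and 193, 10.6 and 114 under the Ago2-/- label. Cdk6 followed the same order of pairs, with 20.0, 63.4 and 8.74 against 55.5, 7.45 and 15.4 FPKM. Cdk4 stayed between 510 and 623 FPKM. Cdkn2c, the p18INK4C inhibitor, was low where Cdkn2b was high: it had 28.5, 4.95 and 32.0 FPKM against 5.16, 36.2 and 27.5. Cdkn1c, the p57KIP2 inhibitor, had 0.110, 0 and 7.81 against 0, 10.97 and 0.186 FPKM, so it was above 1 FPKM in the 2 groups with the lowest Cdkn1a, and listed at 0 in the 2 with the lowest Trp53. Rb1, read at the highest of its 3 loci, had 2.73 to 7.99 FPKM. Under tunicamycin 2 of the 18 lay 2-fold higher and 5 lower than DMSO with the Ago2+/+ label (all loci: 9.61% and 8.29%), and 4 higher and 3 lower with the Ago2-/- label (11.6% and 10.3%). Under thapsigargin the counts were 1 and 4 with the Ago2+/+ label (9.27% and 7.54%), and 5 and 1 with the Ago2-/- label (8.21% and 9.81%). With the Ago2+/+ label, Cdkn1c was among the 5 lower under tunicamycin at 0 FPKM, against 0.110 under DMSO.

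**Figure D5:**
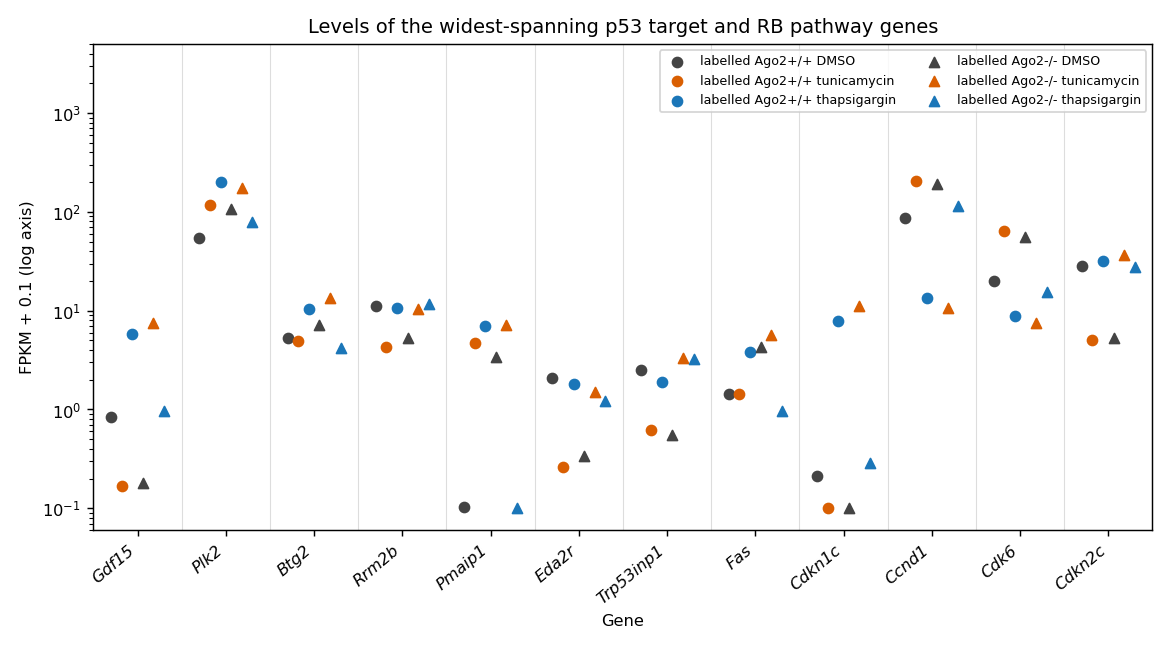
FPKM + 0.1 (y axis, log scale) of the widest-spanning genes of 3 lists (x axis; Gdf15 to Rrm2b arrest and repair, Pmaip1 to Fas death, Cdkn1c to Cdkn2c RB and INK4), 1 point for each group, circles labelled Ago2+/+, triangles labelled Ago2-/-, colour by treatment. Cdkn2c and Rrm2b show the 2 low points of Trp53, whereas Ccnd1 and Cdk6 are highest in those 2 groups.

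For the 2 genes with a span of at least 2, the loci with the most similar profile were sought by the root mean square difference of log2(FPKM + 0.1), each centred on its own mean over the 6 groups. For Trp53 they were Chst10 (difference 0.113), Gm15574 (0.159) and Bcl7a (0.170). Chst10, a sulfotransferase, had 2.05 to 2.46 FPKM in the 4 groups with high Trp53 and at most 0.0242 in the other 2. For Cdkn1a they were 4930481B07Rik (0.190), Sh3bgrl2 (0.217) and Hmga1b (0.228), none closer than the third for Trp53. With 6 points, such likeness is a description only.

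The neighbours of Trp53 were read after its values had been seen. Of 22 loci within 100 kb on either side, Trp53 itself included, 10 had a mean of at least 1 FPKM. All of these but Eif4a1 and Gm25835 were lowest in the 2 groups with low Trp53, as were 26.4% of all loci. Wrap53, which starts from the opposite strand within 1 kb of Trp53, was also lowest in the groups with low Trp53, at 14.2 and 13.9 FPKM against 15.2 to 18.9 in the others, but its whole range was 1.36-fold, against 20.6-fold for Trp53. Sat2, 30.2 kb away, was lowest in the same 2 groups as Trp53, at 1.57 and 0.959 FPKM against 5.21 to 6.20. Fxr2, 41.1 kb away, was lowest there too, at 42.6 and 41.2 FPKM against 65.6 to 73.2. The sources used here do not give the strandedness of the libraries, so reads of overlapping opposite transcripts cannot be told apart.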

How the data were processed

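RNA-seq of 18 mouse embryonic fibroblast libraries (6 groups of 3) was deposited as 1 table. Per the study's methods and the submitters' processing notes, the authors aligned reads with HISAT2 2.1.0, assembled transcripts with StringTie 1.3.4d on Ensembl annotation and GRCm38, and compared groups with Cuffdiff 2.2.1. Its 772485 rows hold each of 51499 loci in each of 15 pairs of groups. The deposited FPKM is the authors' pooled value per group. The table also holds the authors' fold changes, test statistics, p-values, q-values and calls, which were not used.

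The 1 FPKM of each locus and group was taken from these rows, and starts were converted to count from 1. Starts and ends of the members were checked against GENCODE for the same build. Differences were taken on log2(FPKM + 0.1), and 2-fold differences were counted; the background was the 11929 loci averaging 1 FPKM or more. With 1 value per group there was no test, SD or interval, and the spread between libraries is unknown. Low FPKM of single-transcript loci were searched for steps of whole reads. With the best step, 22.9% to 50.6% came within 0.1 of a whole multiple. Without steps 20% would for 1 fixed step, so 20% is too low a reference for the best of many. Reads were not recovered and the depth is unknown. Counting and ordering were checked on simulated data. Promoters came from RefSeq (GRCm38.p6).

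The 10 genes and all lists were chosen with earlier results of these data known. Genes named are the 10, Ago2, the 4 of each pathway list with the widest span among those with a mean of at least 1 FPKM, list genes with a mean under 0.1 FPKM, loci within 1000000 bases of Cdkn2a, and the 3 most similar profiles of genes spanning at least 2. Further genes were named after their values were seen: Cdk4, Rb1 and the neighbours of Trp53. The fibroblast markers were all given. Groups follow the library titles. The 4 libraries with conflicting genotype labels, replicate 2 of the 3 groups titled DCR1 and replicate 3 of Ago2-/- DMSO, stayed in the pooled values. Alternatives were other pseudocounts, a 1.5-fold limit, centring and the filter on level. Python 3.11.15, pandas 2.3.3 and NumPy 2.4.6 were used.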

Additional observations from a re-analysis of the deposited data

Results flagged for a closer look

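In 2 cases a gene differed by at least 2-fold from DMSO in opposite directions under the 2 genotype labels. Under tunicamycin, Trp53 was lower than DMSO by -3.90 with the Ago2+/+ label and higher by 4.30 with the Ago2-/- label (log2 scale), so that the change under the Ago2-/- label exceeded the other by 8.20. Cdkn2b went the other way, 1.11 higher and -1.53 lower, a difference of -2.63 between the changes. The share of all loci with such opposite differences was not counted. Labelled Ago2+/+ tunicamycin and Ago2-/- DMSO were 2-fold apart at only 1.44% of the loci averaging 1 FPKM or more. Ago2 also differed from DMSO in opposite directions under tunicamycin, by -1.92 with the Ago2+/+ label and 1.45 with the Ago2-/- label. Each group has 1 pooled value, so neither difference was tested.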

How the results depend on the processing

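A pseudocount of 0.01 FPKM, centring on the median of all loci and counting only genes with a mean of at least 1 FPKM kept the count of 2-fold genes within 1.5 times of the reported one in all 7 comparisons. A pseudocount of 1 FPKM lowered the count to 1 for thapsigargin between the genotype labels, from 2, and kept the other 6 within that range. With a 1.5-fold limit the counts were 5 for thapsigargin against DMSO with the Ago2+/+ label, 7 and 6 for tunicamycin and thapsigargin against DMSO with the Ago2-/- label, and 7 and 4 between the genotype labels under tunicamycin and thapsigargin. The share of all loci at this limit was not counted, so these counts have no background to be set against. The spans and the differences between stress changes kept their direction under both other pseudocounts. Leaving out the filter on level kept the share of all loci at least 2-fold apart within 1.5 times. No paired analysis was possible because the table holds 1 pooled value per group, and for the same reason leaving out each replicate was not run. The unknown depth limits what can be said of values near 0, such as Pmaip1 and Cdkn1c.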
